A study of Mus musculus with 10 samples.

Results

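The 10 genes described here are the core of the switch that commits a cell to divide, namely the D-type cyclins Ccnd1, Ccnd2 and Ccnd3, the E-type cyclins Ccne1 and Ccne2, the kinases Cdk4 and Cdk6, the inhibitors Cdkn1b and Cdkn2a, and the retinoblastoma gene Rb1. They were chosen by name for their role in the passage from G1 into S phase, and all 10 were found by Ensembl identifier among the 20206 genes of the table. Values came from RNA sequencing of 10 wild-type C57BL/6 mouse embryonic stem cell (ESC) lines, with 1 library per line. In 5 lines the founding blastocyst came from a mother fed an isocaloric low protein diet (LPD, 9% casein), and in the other 5 from a mother fed a normal protein diet (NPD, 18% casein). Mothers were C57BL/6 females of 7 to 9 weeks, mated to C57BL/6 males and kept on their diet up to embryonic day 3.5. The LPD lines carry the numbers 1, 4, 6, 20 and 40, and those of NPD are 8, 15, 21, 36 and 51. Each line grew from a single blastocyst on mouse embryonic fibroblast feeders, and RNA was taken from feeder-free cultures many passages after the diet had ended. A difference between the diets is therefore a difference between sets of lines, with the line as the replicate and n = 5 for each diet.

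In most cells the D-type cyclins accumulate when growth factors are present and activate CDK4 and CDK6, which phosphorylate the retinoblastoma protein and release the E2F factors it holds. E2F then drives the E-type cyclins and the genes of DNA replication, and cyclin E with CDK2 completes the switch. The inhibitor p27, encoded by Cdkn1b, restrains cyclin E and CDK2, while Cdkn2a encodes the CDK4 and CDK6 inhibitor p16Ink4a and, from another first exon, the p53 activator p19Arf. Mouse ESCs are known for a very short G1 and for high cyclin E activity through the cycle. The comparison of diets asked whether the expression of this machinery differed between lines derived under the 2 diets. The paper reported similar proliferation and cell cycling in lines of both diets, and reduced activation of the kinase ERK in LPD lines.

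Checks of the lines bear on all results below. Depth, estimated for each line as its summed value over the worth of a single read, ran from 5832480 to 24127688 read equivalents in LPD lines with a median of 12272847, and from 20396408 to 23137225 in NPD lines. LPD lines 4, 6 and 40 were the shallow ones. All 9 pluripotent cell markers, Pou5f1, Nanog and Sox2 among them, were present in every line, and their summed value was between 89901 and 116148. The 12 fibroblast markers summed to 6443 in NPD line 15, 6114 in LPD line 6, 2802 in NPD line 8 and 2122 in NPD line 36, against 511 to 957 in the other lines. The labels give all lines as male, and the Y-linked gene Ddx3y read 1110 to 1493 in 8 lines but 174 in LPD line 4 and, lowest of all, 7.70 in NPD line 15. The diet differences of the members were therefore also computed without these 2 lines.

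No difference between LPD and NPD lines was detected in any of the 10 genes. Of the 10 genes, all of which passed the filter of a mean of at least 10, 0 had an adjusted p under 0.1 and 0 an unadjusted p under 0.05 (limma), against 0% and 5.02% of the 14354 genes tested. Over all genes, 2.84% were higher and 2.18% lower in LPD at that unadjusted threshold, and 0 members were in either set. The exact permutation test likewise gave 0 of 10 under 0.05, against 5.34% of all genes. Fitted log2 fold changes of LPD against NPD ran from -0.24 for Ccnd1 to 0.26 for Rb1, with 7 genes below 0 and 3 above, a median of -0.04 and adjusted p between 0.994 and 0.998. In none of the 10 genes did the values of LPD and NPD lines separate, and 1.02% of all genes had groups without overlap. Differences of this size do not show that the genes were alike, and the 95% intervals set what the data leave possible. The interval was narrowest for Cdk4, from -0.32 to 0.26 on the log2 scale, and widest for Ccnd2, from -0.94 to 1.15.

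**Figure D1:**
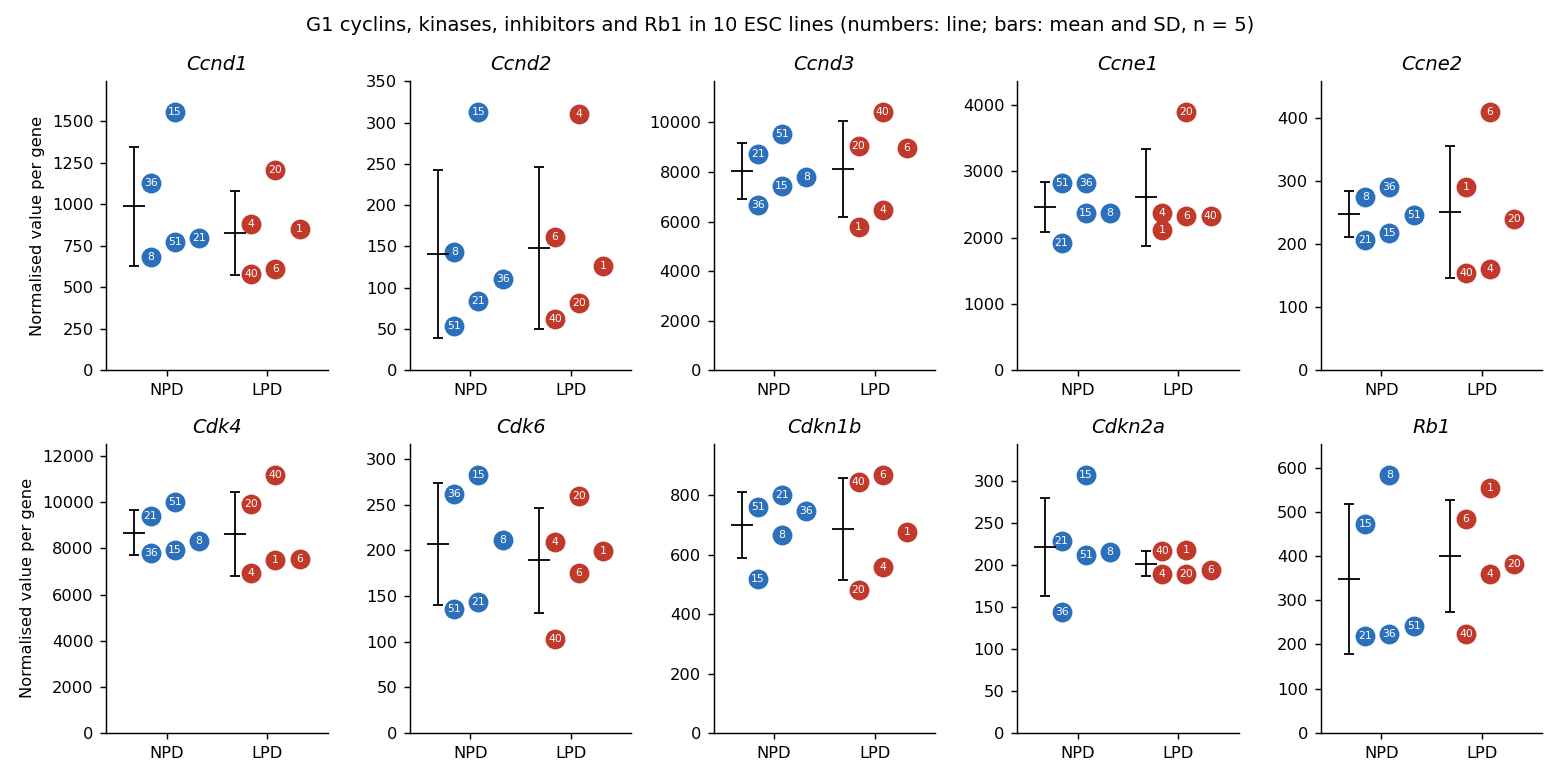
Normalised value (vertical axis, linear from 0, a different range in each panel) of each of the 10 genes in 5 NPD lines (blue) and 5 LPD lines (red), with the line number inside each point and the mean ± SD of the diet beside the points. Blue and red points overlap in every panel, from Cdk4, where all lines lie between 6948 and 11199, to Ccnd2, where NPD line 15 and LPD line 4 stand far above the rest.

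Among the D-type cyclins, Ccnd3 had the highest level in every line. Ccnd3 (ENSMUSG00000034165, GRCm38 chromosome 17, 47505051 to 47599691) read 5799, 6457, 8961, 9047 and 10420 in LPD lines 1, 4, 6, 20 and 40, and 7804, 7446, 8738, 6670 and 9522 in NPD lines 8, 15, 21, 36 and 51. The lowest 2 values and the highest were all LPD, so the NPD lines fell inside the LPD range. The means were 8137 ± 1937 (SD, n = 5) in LPD and 8036 ± 1114 in NPD, a log2 fold change of -0.01 with a standard error of 0.16 (limma, p = 0.972; two-sided exact permutation test, p = 0.968). Its sign turned with the choice of lines, to between 0.03 and 0.11 without LPD line 1 or 4 or NPD line 21 or 51, and to 0.04 without both lines of low Ddx3y.

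Ccnd1 (ENSMUSG00000070348, chromosome 7, 144929931 to 144939925, minus strand), the D-type cyclin most tied to mitogen signalling, read 850, 878, 611, 1208 and 578 in the LPD lines and 684, 1555, 793, 1128 and 774 in the NPD lines, in the same order of lines. NPD line 15 was highest, and LPD lines 40 and 6 were lowest. The means were 825 ± 253 in LPD and 987 ± 359 in NPD, and the log2 fold change was -0.24 with a standard error of 0.24 (limma, p = 0.337; exact permutation test, p = 0.429). It stayed below 0 with each line left out in turn, between -0.39 and -0.06, the latter without NPD line 15.

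Ccnd2 (ENSMUSG00000000184, chromosome 6, 127125162 to 127152193, minus strand) was the lowest D-type cyclin and the least even of the 10 genes. Its values were 127, 310, 161, 81.7 and 62.0 in the LPD lines and 143, 313, 84.4, 111 and 53.0 in the NPD lines. LPD line 4 and NPD line 15 were about equal and well above the other lines, and these are the 2 lines of low Ddx3y. Its highest value was 5.90 times its lowest, and its SD over the 10 lines, 0.87 on the log2 scale, was larger than that of 93.3% of the genes tested. The counts behind the values were 39.1 to 412 read equivalents, for which counting error alone is 4.93% at the least and 15.99% at the most. No diet difference was detected in Ccnd2, with means of 148 ± 98.3 in LPD and 141 ± 102 in NPD and a log2 fold change of 0.10 with a standard error of 0.48 (limma, p = 0.832; exact permutation test, p = 0.849). Its sign turned to -0.22 without LPD line 4, to -0.18 without NPD line 51, to -0.01 without NPD line 21 and to -0.35 with depth as a covariate.

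Levels of different genes were compared per length, as the normalised value per kb of the longest protein-coding transcript. On this scale Ccnd3 made up 93.7% ± 2.41 of the D-type cyclin total in LPD lines and 92.8% ± 3.11 in NPD lines. Ccnd1 made up 5.67% ± 2.13 and 6.61% ± 2.76, and Ccnd2 0.636% ± 0.505 and 0.561% ± 0.411. The lowest Ccnd3 share of any line was 88.3%, in NPD. Ccnd3 has 21 annotated transcripts, and with the length of all its exons joined in place of the longest coding transcript its mean share over the 10 lines was 81.3% instead of 93.3%, and its lowest share in a line 70.0%. With joined exons the share of Ccnd1 was 16.2% ± 5.51 in LPD and 18.4% ± 6.54 in NPD lines, and that of Ccnd2 1.53% ± 1.17 and 1.31% ± 0.885, so the size of the shares depends on the length used.

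Of the kinases Cdk4 and Cdk6, Cdk4 had the higher RNA level in every line. Cdk4 (ENSMUSG00000006728, chromosome 10, 127063534 to 127067920) read 7512, 6948, 7564, 9922 and 11199 in the LPD lines and 8313, 7929, 9413, 7790 and 10012 in the NPD lines. It was the steadiest of the 10 genes, with an SD of 0.23 on the log2 scale against a median of 0.22 over 10455 genes whose mean reached 100. The LPD lines held both the highest value and the lowest 3. Means were 8629 ± 1836 in LPD and 8691 ± 975 in NPD, a log2 fold change of -0.03 with a standard error of 0.13 (limma, p = 0.837; exact permutation test, p = 0.841). The sign turned without LPD line 1, 4 or 6 or NPD line 21 or 51, to 0.04 at most, and to 0.01 without both lines of low Ddx3y.

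Cdk6 (ENSMUSG00000040274, chromosome 5, 3341485 to 3531008), the other kinase that D-type cyclins activate, read 199, 209, 175, 259 and 102 in the LPD lines and 211, 283, 143, 261 and 135 in the NPD lines. LPD line 40 was lowest and NPD line 15 highest. The means were 189 ± 57.3 in LPD and 207 ± 66.9 in NPD, a log2 fold change of -0.13 with a standard error of 0.27 (limma, p = 0.643; exact permutation test, p = 0.675), which became 0.07 without LPD line 40. Per kb, Cdk4 made up 99.6% of the Cdk4 and Cdk6 total in both diets, with SDs of 0.144 in LPD and 0.180 in NPD.

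The start of Cdk4 is shown because it holds an unusual number of E-boxes, the letters that Myc with its partner Max is known to bind. The window is 300 bases around the start in RefSeq (build GRCm38.p6), most of them upstream, given 5′ to 3′ on the gene's strand, with E-boxes (CACGTG) and GC boxes (GGGCGG, or CCGCCC where it lies on the other strand) in capitals.
Cdk4, plus strand, chr10:127063285-127063584: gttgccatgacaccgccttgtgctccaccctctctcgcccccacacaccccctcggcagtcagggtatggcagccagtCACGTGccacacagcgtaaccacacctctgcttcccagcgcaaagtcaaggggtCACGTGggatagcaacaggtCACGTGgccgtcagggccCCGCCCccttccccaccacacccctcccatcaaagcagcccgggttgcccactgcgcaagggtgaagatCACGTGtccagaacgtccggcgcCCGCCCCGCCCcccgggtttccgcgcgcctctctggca
The E-boxes begin at positions -172, -118, -98 and -11 from the start, and the last 2 GC boxes, at 13 and 18, overlap. At least 1 E-box was found in 7.15% of the 32851 promoter windows of this length, and at least 4 in 8 windows or 0.0244%. GC boxes are common, in 35.7% of windows. Of the other members, the window of Cdk6 holds 1 E-box and those of Ccnd3, Ccne1, Cdkn1b and Cdkn2a hold 0. The E2F letters TTTCGCGC or TTTGGCGC, sought on both strands and found in 0.813% of all windows, are in none of the 8 windows of these 6 genes. Such matches are letters only, and nothing about binding was measured.

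**Figure D2:**
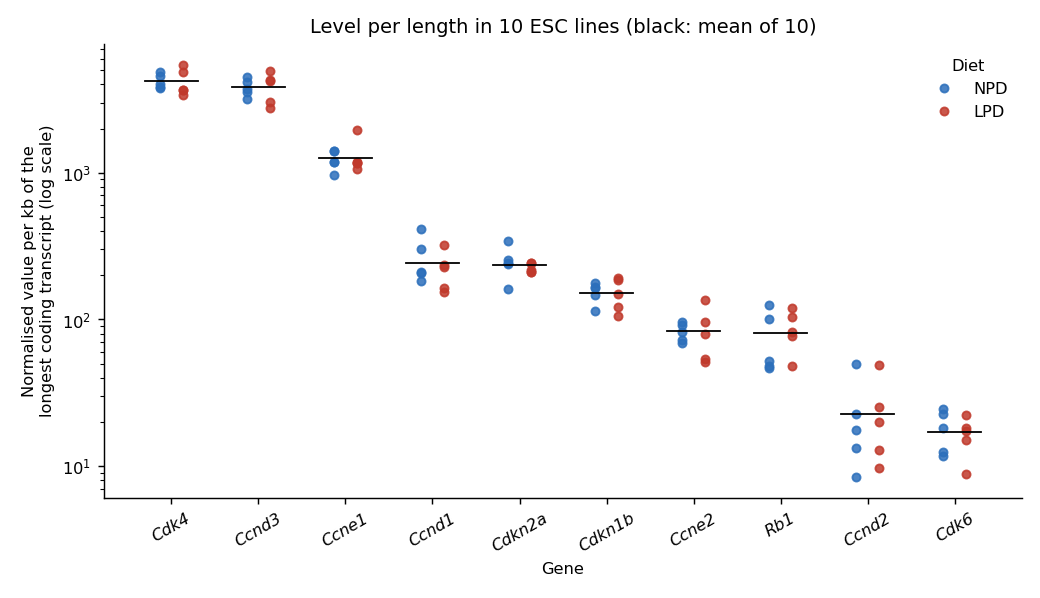
Normalised value per kb of the longest protein-coding transcript (vertical axis, log scale) of the 10 genes in NPD (blue) and LPD (red) lines, ordered by the mean of the 10 lines (black bar). Cdk4 and Ccnd3 lie at the top with means of 4218 and 3827, and Ccnd2 and Cdk6 at the bottom with 22.8 and 17.2, with the points of both diets overlapping for each gene.

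Of the E-type cyclins, which act after the D-type cyclins, Ccne1 had the higher RNA level in every line. Ccne1 (ENSMUSG00000002068, chromosome 7, 38097984 to 38107534, minus strand) read 2121, 2377, 2320, 3897 and 2325 in the LPD lines and 2375, 2372, 1916, 2829 and 2823 in the NPD lines. The value of LPD line 20 stood apart from the other 4 LPD lines, which lay within 2121 to 2377. The means were 2608 ± 727 in LPD and 2463 ± 380 in NPD, a log2 fold change of 0.06 with a standard error of 0.16 (limma, p = 0.718; exact permutation test, p = 0.802), which became -0.09 without LPD line 20 and -0.03 without NPD line 21.

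Ccne2 (ENSMUSG00000028212, chromosome 4, 11191351 to 11204779) was the E-type cyclin of lower RNA level. Its values ranged more widely in LPD than in NPD lines, a difference in spread that was not tested. It read 291, 161, 410, 239 and 155 in the LPD lines and 275, 218, 206, 291 and 247 in the NPD lines, so that LPD held the highest and the 2 lowest values. Those came from the shallow LPD lines 6, 40 and 4, with counting errors of 5.83%, 10.1% and 13.4%. In NPD lines the counting error was 5.00% to 6.05%. The means were 251 ± 105 and 247 ± 36.2, a log2 fold change of -0.06 with a standard error of 0.25 (limma, p = 0.800; exact permutation test, p = 0.849). It became 0.09 without LPD line 40, 0.07 without LPD line 4 and 0.17 with depth as a covariate. Per kb, Ccne1 made up 93.7% ± 2.99 of the E-type cyclin total in LPD lines and 93.7% ± 0.674 in NPD lines.

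Both inhibitors were expressed in every line. Cdkn1b (ENSMUSG00000003031, chromosome 6, 134920401 to 134925513) read 676, 558, 870, 482 and 845 in the LPD lines and 667, 520, 801, 748 and 762 in the NPD lines. LPD line 20, highest for Ccne1, was lowest for Cdkn1b. The means were 686 ± 171 in LPD and 700 ± 112 in NPD, a log2 fold change of -0.05 with a standard error of 0.18 (limma, p = 0.784; exact permutation test, p = 0.841), which became 0.07 without LPD line 20, 0.02 without LPD line 4 and 0.0036 without NPD line 21.

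Cdkn2a (ENSMUSG00000044303, chromosome 4, 89274471 to 89294653, minus strand) was the most even gene within LPD, at 218, 189, 194, 189 and 217, while the NPD lines read 216, 308, 228, 143 and 212. The NPD lines thus held both the highest value, in line 15, and the lowest, in line 36. Counting error alone ran from 5.91% to 12.4% in the LPD lines, so their evenness cannot be read as tight expression. The means were 202 ± 14.6 in LPD and 221 ± 58.4 in NPD, a log2 fold change of -0.10 with a standard error of 0.18 (limma, p = 0.599; exact permutation test, p = 0.603). It became 0.03 without NPD line 15 and 0.05 without both lines of low Ddx3y.

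The Cdkn2a value is a gene total over 2 annotated transcripts that start from separate first exons and encode unrelated proteins, so p16Ink4a and p19Arf were not told apart. Their starts are shown because no value in the table belongs to either alone. Both windows are on the minus strand in build GRCm38.p6 of RefSeq, with GC boxes in capitals.
Cdkn2a, upstream start (p19Arf), chr4:89294570-89294869: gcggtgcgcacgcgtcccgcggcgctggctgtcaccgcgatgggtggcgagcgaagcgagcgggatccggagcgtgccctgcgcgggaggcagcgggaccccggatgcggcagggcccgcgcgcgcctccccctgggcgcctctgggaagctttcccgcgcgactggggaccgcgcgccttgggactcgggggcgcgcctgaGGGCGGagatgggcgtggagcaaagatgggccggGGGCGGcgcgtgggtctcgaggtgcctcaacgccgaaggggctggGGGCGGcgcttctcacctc
Cdkn2a, downstream start (p16Ink4a), chr4:89282143-89282442: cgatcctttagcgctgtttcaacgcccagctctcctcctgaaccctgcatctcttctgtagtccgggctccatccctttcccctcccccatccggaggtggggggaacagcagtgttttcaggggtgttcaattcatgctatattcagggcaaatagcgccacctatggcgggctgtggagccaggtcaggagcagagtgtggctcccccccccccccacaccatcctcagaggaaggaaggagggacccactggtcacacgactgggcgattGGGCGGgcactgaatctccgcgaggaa
The upstream window holds 3 GC boxes and the downstream window 1, and the letters TATAAA are in neither, against 13.6% of all windows.

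Rb1 (ENSMUSG00000022105, chromosome 14, 73183673 to 73325822, minus strand), the brake that the cyclin and kinase pairs release, had the largest positive difference of the 10 genes. It read 553, 359, 483, 381 and 223 in the LPD lines and 584, 472, 219, 224 and 242 in the NPD lines. Values fell into a low set of 4 lines between 219 and 242, made of 1 LPD and 3 NPD lines, and a high set of 6 lines between 359 and 584, made of 4 LPD and 2 NPD lines. This split was drawn after the values were seen and was not tested. The means were 400 ± 126 in LPD and 348 ± 169 in NPD, a log2 fold change of 0.26 with a standard error of 0.31 (limma, p = 0.412; exact permutation test, p = 0.5). Its sign held with each line left out in turn, between 0.13 and 0.48, and the interval with all lines ran from -0.41 to 0.94. The SD of Rb1 over the 10 lines, 0.57 on the log2 scale, was larger than that of 82.9% of the genes tested, and the largest counting error of any line was 8.97%.

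**Figure D3:**
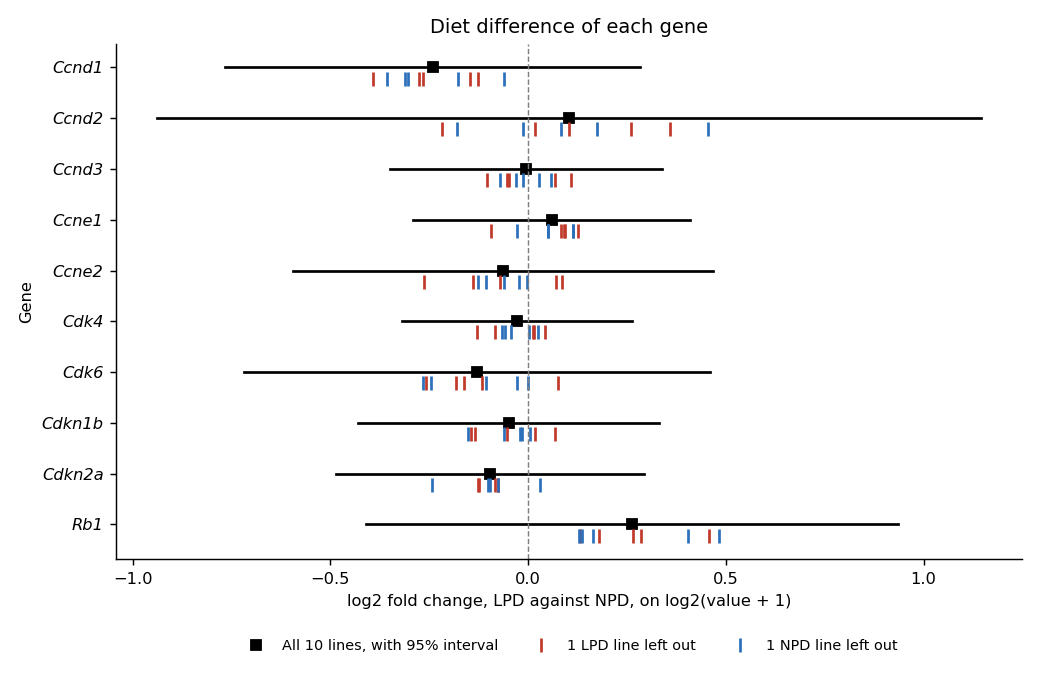
Log2 fold change of LPD against NPD on the log2(value + 1) scale (horizontal axis) for each gene, with all 10 lines (black square, line for the 95% interval) and with 1 LPD line (red mark) or 1 NPD line (blue mark) left out. All 10 intervals cross 0, and with lines left out Ccnd1 stays below 0 and Rb1 above it, while the other 8 genes fall on both sides.

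Ordered by mean level per kb over the 10 lines, the genes ran from Cdk4 (4218) through Ccnd3 (3827), Ccne1 (1268), Ccnd1 (242), Cdkn2a (236), Cdkn1b (152), Ccne2 (82.9), Rb1 (80.3) and Ccnd2 (22.8) to Cdk6 (17.2). Among 13710 protein-coding genes tested, 98.0% had a lower level per kb than Cdk4, 97.8% than Ccnd3 and 92.6% than Ccne1, against 20.7% for Ccnd2 and 17.2% for Cdk6. The retinoblastoma gene and Ccne2 were below the median coding gene, at 122 per kb, as were Ccnd2 and Cdk6, and the inhibitors and Ccnd1 were above it. Some neighbours in the order were not separated. Ccnd1 exceeded Cdkn2a in only 4 of 10 lines, Ccne2 exceeded Rb1 in 5 and Ccnd2 exceeded Cdk6 in 7. Cdk4 exceeded Ccnd3 in 9 lines, as Cdkn2a did Cdkn1b, and the remaining 4 steps held in 10 of 10 lines. With joined exon lengths, Ccnd3 exceeded Ccne1 in only 4 lines.

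Several of these genes varied more from line to line than most genes tested. The median SD over the 10 lines was 0.27 on the log2 scale for all genes tested and 0.22 for those with a mean of 100 or more. Ccnd2 (0.87), Rb1 (0.57), Cdk6 (0.47), Ccnd1 (0.45) and Ccne2 (0.42) were well above both values. Cdkn1b (0.30), Ccne1 (0.28), Ccnd3 (0.27), Cdkn2a (0.27) and Cdk4 (0.23) were close to them. NPD line 15 had the highest Ccnd1, Ccnd2, Cdk6 and Cdkn2a of the 10 lines, at 0.92, 1.39, 0.47 and 0.52 above the median line on the log2 scale. It also had the highest fibroblast marker sum and the lowest Ddx3y, and the part of these in its values was not tested. LPD line 40 was lowest for Ccnd1, Ccne2 and Cdk6 and highest for Ccnd3 and Cdk4. The median deviation of the 364 to 786 genes on each chromosome that holds a member lay between -0.03 and 0.03 in every line. Copy number of the members was not tested.

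**Figure D4:**
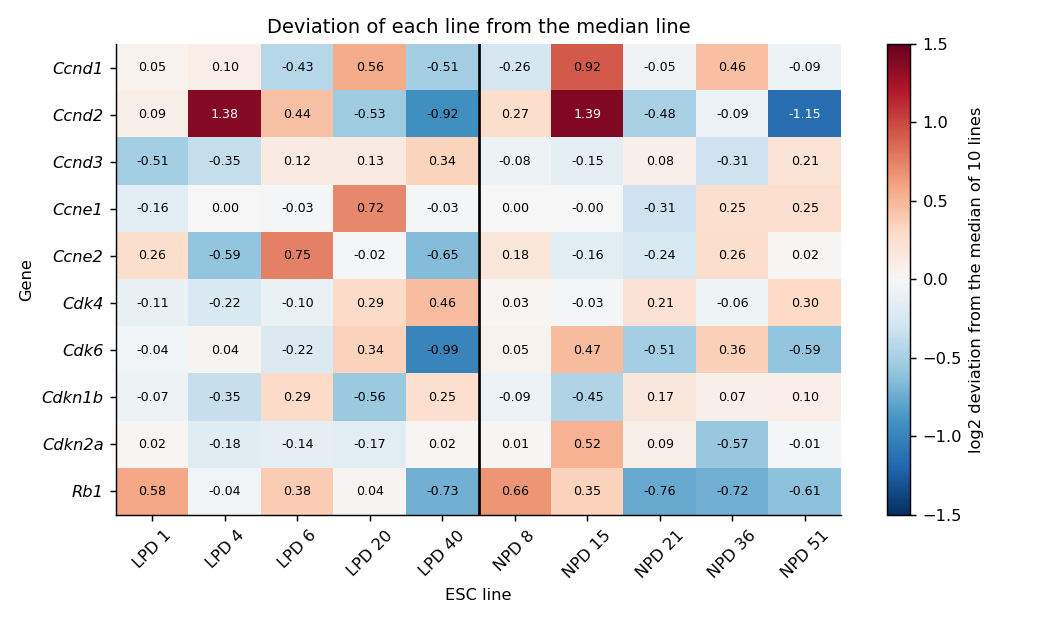
Deviation of each line (columns, LPD left of the black line) from the median of the 10 lines for each gene (rows), as the difference in log2(value + 1), coloured from -1.5 (blue) to 1.5 (red) and printed in each cell. The largest entries are those of Ccnd2 in LPD line 4 (1.38) and NPD line 15 (1.39), while Cdk4 and Ccnd3 stay within about 0.5 of the median in all lines.

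Pairs of genes with the same role were compared across the 10 lines to see whether one rose where the other fell. The smallest p was that of Ccnd2 and Ccnd3, with a Pearson r of -0.62 (permutation test, p = 0.059, adjusted over 6 pairs 0.191) and a Spearman rho of -0.67 (p = 0.039, adjusted 0.236 in the permutation test). Their r was -0.58 without the 2 lines farthest from the median of Ccnd2, and -0.62 within diets. For Cdk4 and Cdk6, r was -0.61 (permutation test, p = 0.064, adjusted 0.191) and rho -0.41 (p = 0.246, adjusted 0.49 by permutation), but r was -0.07 without LPD line 40 and NPD line 51, so the pooled value does not hold without those lines. With each line taken as its deviation from the mean of its diet, r over the 10 lines was -0.63. The other 4 pairs had r between -0.40 and 0.39 and adjusted permutation p of 0.393 or more. Of these, Ccnd1 and Ccnd3 went from an r of -0.40 to -0.72 without NPD line 15 and LPD line 20, the 2 lines farthest from the median of Ccnd1. No pair passed the threshold of 0.05 after adjustment.

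For the 3 genes that varied most among lines, the genes of most similar pattern were sought among 10326 genes with a mean of at least 100, by Pearson r over the 10 lines, as a description with no test. The closest to Ccnd2 were Usp20, a ubiquitin protease, with an r of 0.96, the mitochondrial fission gene Dnm1l (0.94) and Capsl (0.94). For Rb1 they were Exoc4, a subunit of the exocyst, (0.97), Aldh4a1 (0.93) and Tmem63b (0.93). For Cdk6 they were Uaca (0.98), Nav2 (0.97) and Haus6 (0.95), the last a subunit of the augmin complex of the spindle. How often so many genes and so few lines give values this high was not tested, and both genes of a point come from the same library at the same depth.

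The wider cell cycle network was read in the same way. In 7 lists that together hold 92 genes, all of which were tested, 45 genes were higher and 47 lower in LPD, and 0 passed an unadjusted p of 0.05 in limma, against 5.02% of all genes. The exact permutation test gave 1 of 92 under 0.05, against 5.34% of all genes. The median log2 fold change was -0.01, and it was 0.00 over all genes tested. No list had a gene at an adjusted p under 0.1.

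The other CDK inhibitors were 5 genes, with 2 higher and 3 lower in LPD and a median log2 fold change of -0.02. Its smallest p belonged to Cdkn2b, the p15Ink4b gene next to Cdkn2a, at 57.9, 57.5, 56.9, 38.5 and 15.8 in the LPD lines and 76.5, 140, 43.0, 51.4 and 34.9 in the NPD lines. The value in LPD line 40 was lowest and that in NPD line 15 highest, and the log2 fold change was -0.55 with a standard error of 0.43 (limma, p = 0.223; exact permutation test, p = 0.349). Cdkn1a, the p21 gene that p53 activates, had a log2 fold change of 0.05 with a standard error of 0.26 (limma, p = 0.859; exact permutation test, p = 0.841).

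Among 12 other cell cycle kinases and their activators, CDK1 and CDK2 included, 7 were higher and 5 lower, with a median of 0.01. The gene of smallest p was Cdc25c, a phosphatase that activates CDK1 at mitosis. It read 653, 589, 566, 524 and 653 in the LPD lines and 490, 470, 602, 480 and 511 in the NPD lines, and 4 of the 5 NPD lines were below all LPD lines. The log2 fold change was 0.23 with a standard error of 0.11 (limma, p = 0.054, adjusted p = 0.994), and the exact permutation test gave p = 0.040, which is not adjusted for the 92 genes of the lists. It was the 1 gene that this test called.

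Of 14 genes in the pocket protein and E2F list, which also holds Lin9 and Lin54, 6 were higher and 8 lower, with a median of -0.03. The smallest p was that of Tfdp1, the DNA-binding partner of E2F, with means of 2825 ± 309 in LPD and 3182 ± 175 in NPD and a log2 fold change of -0.18 with a standard error of 0.09 (limma, p = 0.064; exact permutation test, p = 0.071). LPD lines 1, 6 and 40 were below all NPD lines.

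The 22 S-phase genes that E2F drives, such as the Mcm helicase subunits, ran from -0.22 to 0.15, with 10 higher and 12 lower and a median of -0.01. The gene of smallest p was Pola1, the catalytic subunit of DNA polymerase alpha, at -0.22 with a standard error of 0.14 (limma, p = 0.137; exact permutation test, p = 0.222). Pola1 is X-linked, its highest value was 1768 in NPD line 15, and the difference was -0.10 without that line. The 14 G2/M genes ran from -0.13 to 0.14, with 8 higher and 6 lower and a median of 0.02, and the smallest p was that of the spindle checkpoint kinase gene Ttk (-0.13, standard error 0.08; limma, p = 0.159; exact permutation test, p = 0.071).

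The 13 genes of cyclin and p27 turnover, which include the ubiquitin ligase subunits Skp2 and Fbxw7, ran from -0.20 to 0.09, with 6 higher and 7 lower and a median of -0.03. The smallest p was that of Fbxo31, which targets cyclin D1 for destruction (-0.20, standard error 0.17; limma, p = 0.258; exact permutation test, p = 0.317). The 12 genes known to regulate transcription of the members were split evenly, 6 higher and 6 lower, with a median of -0.01. Myc, an activator of Cdk4 and Ccnd2 transcription, read 229, 475, 684, 1338 and 310 in the LPD lines and 373, 204.5, 271, 505 and 544 in the NPD lines. LPD line 20, the line of highest Ccne1, was far above the rest, and the log2 fold change was 0.49 with a standard error of 0.42 (limma, p = 0.269; exact permutation test, p = 0.397) and 0.13 without that line.

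**Figure D5:**
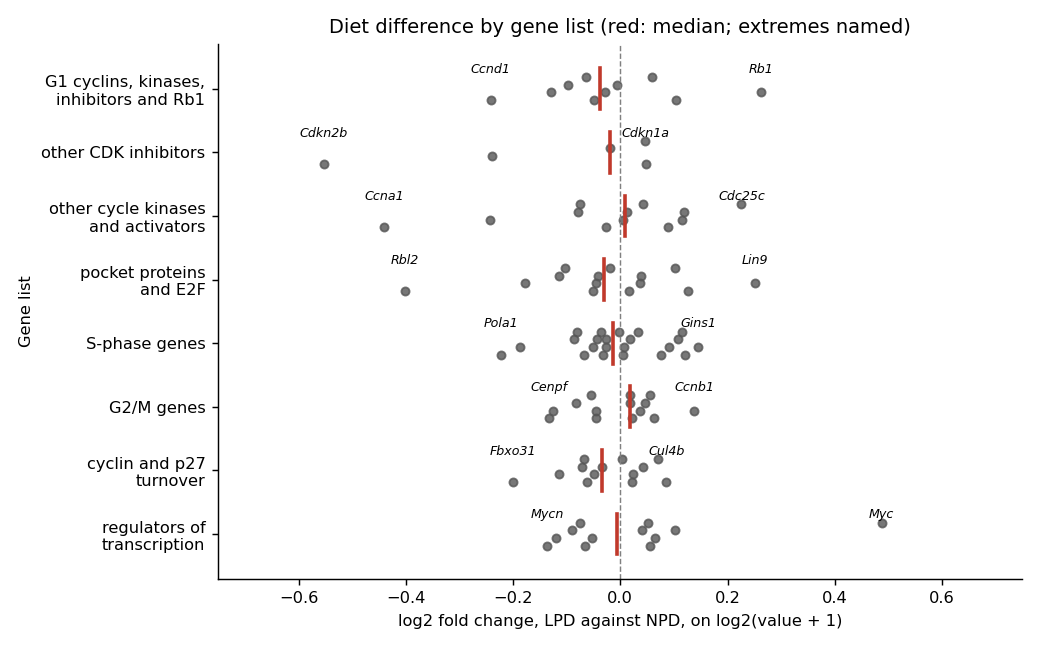
Log2 fold change of LPD against NPD on the log2(value + 1) scale (horizontal axis) of each gene (grey point) in the 10 members and the 7 other cell cycle lists, with the list median as a red bar and the lowest and highest gene of each list named. All medians lie between -0.04 and 0.02, and few points lie beyond 0.25 in either direction, among them Cdkn2b, Ccna1 and Rbl2 below and Myc above.

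Marker genes of other cells were read beside these results. Of the 9 fibroblast markers tested 1 was higher and 8 lower in LPD, with a median log2 fold change of -0.88. The summed fibroblast level ran from 511 to 6114 in LPD lines and from 708 to 6443 in NPD lines. The collagen genes of the list and Acta2, Thy1 and Pdgfrb were above 0 in every line, while Dcn, Lum, Postn, Twist2 and S100a4 were each at 0 in at least 1 line. All 7 primitive endoderm markers were higher in LPD, with a median of 0.34 and summed levels of 645 to 4312 in LPD lines and 448 to 4941 in NPD lines. Of these 16 genes 0 passed an unadjusted p of 0.05 in limma, against 5.02% of all genes tested. Of all 14354 genes, 7247 were higher and 7107 lower in LPD. Among 7 trophectoderm markers 5 were higher and 2 lower, and the sum was 9022 in LPD line 6, against 1378 to 3025 in the other 9 lines. Most of that sum came from the keratin genes Krt8 (4577), Krt18 (3053) and Krt7 (638). Gata3 was also highest in LPD line 6 (265), while Cdx2, Eomes, Elf5 and Hand1 were each higher in another line. The 6 primed epiblast markers were all lower in LPD, 1 of them, Otx2, at an unadjusted p under 0.05 (log2 fold change -0.85, limma, p = 0.031, adjusted p = 0.952; exact permutation test, p = 0.071). Of the 3 early differentiation markers tested 2 were higher and 1 lower, and of the 9 pluripotent cell markers 3 and 6, with 0 at an unadjusted p under 0.05 in limma among these or the trophectoderm markers. In bulk RNA, fewer cells of a type and less RNA per cell cannot be told apart, and the part of such cells in the members' values was not tested.

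Some members share bases with genes on the opposite strand, and no source used here states whether the libraries kept the strand. Exons of Ccnd1 share 1100 bases with LTO1, those of Ccnd3 361 with Bysl, those of Ccne2 609 with Ints8, those of Cdk4 641 with Tspan31, and those of Rb1 408 with Lpar6 and 488 with Rcbtb2. Reads from the shared bases may have been divided between the partners. Exons of Ccnd2 and Cdk6 also overlap antisense genes for which the table has no row.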

How the data were processed

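The authors trimmed adaptors with cutadapt, quantified transcripts with Salmon on GRCm38 transcripts and tested them with sleuth 0.30.0, as the paper and the submitters' notes give. They deposited a signal per gene and line, an estimated count normalised, by the name of the table, with DESeq2, and how transcripts were summed is not given in the sources used here. At a tolerance of 0.15, 67.8% to 74.5% of low values in a line were whole reads, so no count test was run, and 0 columns lacked a sample. Values were tested as log2(value + 1) with limma 3.58.1 (R 4.3.3, trend, no covariate, a mean of at least 10 as filter) and Benjamini-Hochberg adjustment at 0.1. The paper tested transcripts and listed some at a false discovery rate under 0.1. Its counts and the counts of genes given here are of different units and tests. Single genes were also tested by two-sided exact permutation over 252 assignments, whose smallest p is 0.00794. Of the 20206 genes, 19918 were matched to GENCODE M21 on GRCm38, and RefSeq promoters were found for 6 members. Scripts were tested on simulated data. Counting errors and depths cover counting only, while the 95% intervals of fold changes cover the spread between lines.

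The members and gene lists were chosen with earlier results of these data known. Named in full were the 10 members, the gene of smallest p in each of the 7 cell cycle lists, none of which had a gene at an unadjusted p under 0.05, and the 3 genes most like each of the 3 most variable members. Cdkn1a, Ccna1, Rbl2 and the marker genes named were chosen after their values were seen, apart from Otx2 and Ddx3y. Alternatives were pseudocounts of 0.5 and 10, no filter, a mean of at least 100, quantile normalization, scaling to the same total, a fit without trend, robust eBayes, array weights, the first component of the within-diet residuals or depth as covariate, an exact Mann-Whitney test, joined exon lengths and each line left out. Leaving out both lines of low Ddx3y was chosen after seeing the data.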

Additional observations from a re-analysis of the deposited data

Results flagged for a closer look

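In 1 of the 20 sets of 5 lines examined, a line lay farther from the others than Dixon's criterion allows. This was Ccne1 in LPD line 20, at a normalised value of 3897 against 2121 to 2377 in the other LPD lines. At this criterion 1 of 20 sets is flagged by chance. The same line had the highest Myc, 1338, and the lowest Cdkn1b, 482, of the 10 lines, and these values were noticed after Ccne1 was flagged.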

How the results depend on the processing

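No paired analysis was possible, because by the paper's account every line used came from a different mother. Under all 22 alternatives 0 members passed an unadjusted p of 0.05, the smallest being 0.119, and their adjusted p stayed between 0.896 and 1.000 (limma). When lines were left out one at a time, log2 fold changes ran from -0.39 to -0.06 for Ccnd1, -0.22 to 0.46 for Ccnd2, -0.10 to 0.11 for Ccnd3, -0.095 to 0.12 for Ccne1, -0.26 to 0.086 for Ccne2, -0.13 to 0.044 for Cdk4, -0.27 to 0.074 for Cdk6, -0.15 to 0.068 for Cdkn1b, -0.24 to 0.031 for Cdkn2a and 0.13 to 0.48 for Rb1. Depth as a covariate turned Ccnd2 to -0.35, Ccnd3 to 0.0070, Ccne2 to 0.17, Cdk4 to 0.053 and Cdk6 to 0.0096, and leaving out LPD line 4 and NPD line 15 together turned Ccnd3 to 0.044, Ccne2 to 0.028, Cdk4 to 0.012 and Cdkn2a to 0.053. The cause was not tested. The exact Mann-Whitney test called 0 of the 10 genes at 0.05, and its share over all genes was not computed.

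In the cell cycle lists, 1 gene passed an unadjusted p of 0.05 with a mean of at least 100 (Cdc25c), with the same total (Tfdp1), with quantile normalization (Tfdp1) and with the first component as covariate (Cdc25c). With a line left out 0 to 2 did, namely Cdc25b without LPD line 1, Tfdp1 without LPD line 4, Tfdp1 and Cdc25c without LPD line 20, Ccnb1 and Cdkn2d without LPD line 40, Cdc25c and Fbxo31 without NPD line 21, and Pola1 and Lin9 without NPD line 51. The adjusted p of these lists was 0.685 or more under every alternative. At an unadjusted p under 0.05, fits with a line left out called 549 to 904 of all genes, against 721 (5.02%) with all 10 lines. Among all genes tested, 573 passed that p with a mean of at least 100 and 734 with the same total. Quantile normalization called 775 and the first component as covariate 868, each of these settings with 1 gene of the lists. Over all genes tested, array weights gave 1 gene at an adjusted p under 0.1, and leaving out a line gave 0 to 40, the 40 without LPD line 40 and 1 each without LPD line 1, LPD line 20 and NPD line 8. Without a filter 549 genes were lower at an unadjusted p under 0.05, instead of 313. Of the genes at that p, 56.6% were higher in LPD, against 46.2% without a filter and 40.2% at the same total.

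With joined exon lengths the Ccnd3 share was 81.3%, and without 2 lines the r of Cdkn1b and Cdkn2a moved from -0.23 to 0.10. The largest counting error of a member value was 15.99%, for Ccnd2 in the shallow LPD line 40. For the same gene it was 12.6% in NPD line 51, 9.65% in LPD line 4 and 9.30% in LPD line 6, so depth alone did not set precision.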
